A study of Canis lupus familiaris with 8 samples.

Results

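Fatty acid beta-oxidation is the stepwise shortening of fatty acids into acetyl-CoA. In mitochondria it supplies electrons to the respiratory chain and is a main source of energy for heart muscle, while peroxisomes run a parallel version with their own enzymes for very long and branched chains. The 10 enzymes described here were taken by gene symbol, as every probe set whose platform annotation names HSD17B4, ECHS1, DECR1, HADHA, HADHB, ACADM, ACAA1, ACAA2, CPT2 or ETFDH. HSD17B4 and ACAA1 are peroxisomal and the other 8 are mitochondrial. The array held 24 such probe sets among 23836 other than array controls, and 20 of them were bright enough to be tested, 15 of mitochondrial and 5 of peroxisomal enzymes. A probe set is a group of short oligonucleotides that together give 1 signal for a transcript, and a gene can have several.

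The tissue was the frozen anterior leaflet of the mitral valve from 8 dogs, and each dog's total RNA went onto 1 Affymetrix array. The 4 control dogs were beagle crosses, and the labels give no treatment of the dogs. The 4 affected dogs had degenerative mitral valve disease (DMVD in the labels), a thickening and distortion of the leaflets. Affected 1 was a Lhasa apso, affected 2 and 4 were Miniature poodles and affected 3 was a Dachshund, so breed and disease cannot be told apart. Age is not given in the sources used here, and the whole leaflet was extracted, so fewer cells of a type and less RNA per cell cannot be told apart.

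The arrays had been scaled to a trimmed mean signal of 500.1, and their median signals ranged from 124 to 191. The number of arrays limits the precision. Over the arrays, 11 tested markers of valve interstitial cells, the fibroblast-like cells of the leaflet, had mean log2 signals of 11.25 to 13.60. Such a mean does not by itself show which cells gave the signal. Control 2 stood apart from the other controls. Its interstitial marker mean of 11.25 compared with 13.06 to 13.44 in the other 3, its macrophage marker mean of 6.36 with 8.54 to 9.81, and its mean over 22 cardiac muscle markers of 13.69 with 10.77 to 12.31. No cardiac marker was at the floor on any array, and the mean of that list was lowest in affected 3, at 9.83. Values that control 2 moved by a wide margin are given without it too.

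The comparison of affected with control leaflets asked how these enzymes differ in the diseased valve. All 20 tested probe sets had a lower mean log2 signal in affected dogs, where 49.5% of all 14705 tested probe sets did. The median difference, affected minus control, was -0.61 over the 8 mitochondrial genes and -0.63 over the 2 peroxisomal genes, each gene read by its brightest tested probe set, and 0.0065 over all tested probe sets. Of the 20, 18 were bright enough on all 8 arrays, and the other 2, both of DECR1, on 7 and 5. No member passed the threshold. The adjusted p, from limma with Benjamini-Hochberg adjustment over all tested probe sets, ranged from 0.604 to 0.840 over the members, against a threshold of 0.05 that 0% of probe sets passed in either direction. At an unadjusted p under 0.05, 6 of the 20 were lower in affected dogs, against a background of 3.81%. That count was 0 without control 4, 0 without affected 1, 1 without affected 2 and 3 without affected 4. The background was then 2.23%, 2.17%, 4.28% and 2.98% in the same order. The 6 belong to 4 genes, and probe sets of a gene are not independent of each other. The members were chosen with earlier results of these data known. These counts beside the background shares are therefore a description and no test of the set.

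1 dog, control 2, stood high for the mitochondrial enzymes and low among controls for the peroxisomal ones. It had the highest signal of all 8 dogs for each of the 15 mitochondrial probe sets and for none of the 5 peroxisomal ones. With all dogs the mitochondrial and peroxisomal medians were alike, at -0.61 and -0.63. The mitochondrial median was -0.26 without control 2, and the peroxisomal median was -0.82. The plot of signals by dog shows control 2 above every other dog for the 8 mitochondrial enzymes and below the other controls for HSD17B4 and ACAA1.

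**Figure D1:**
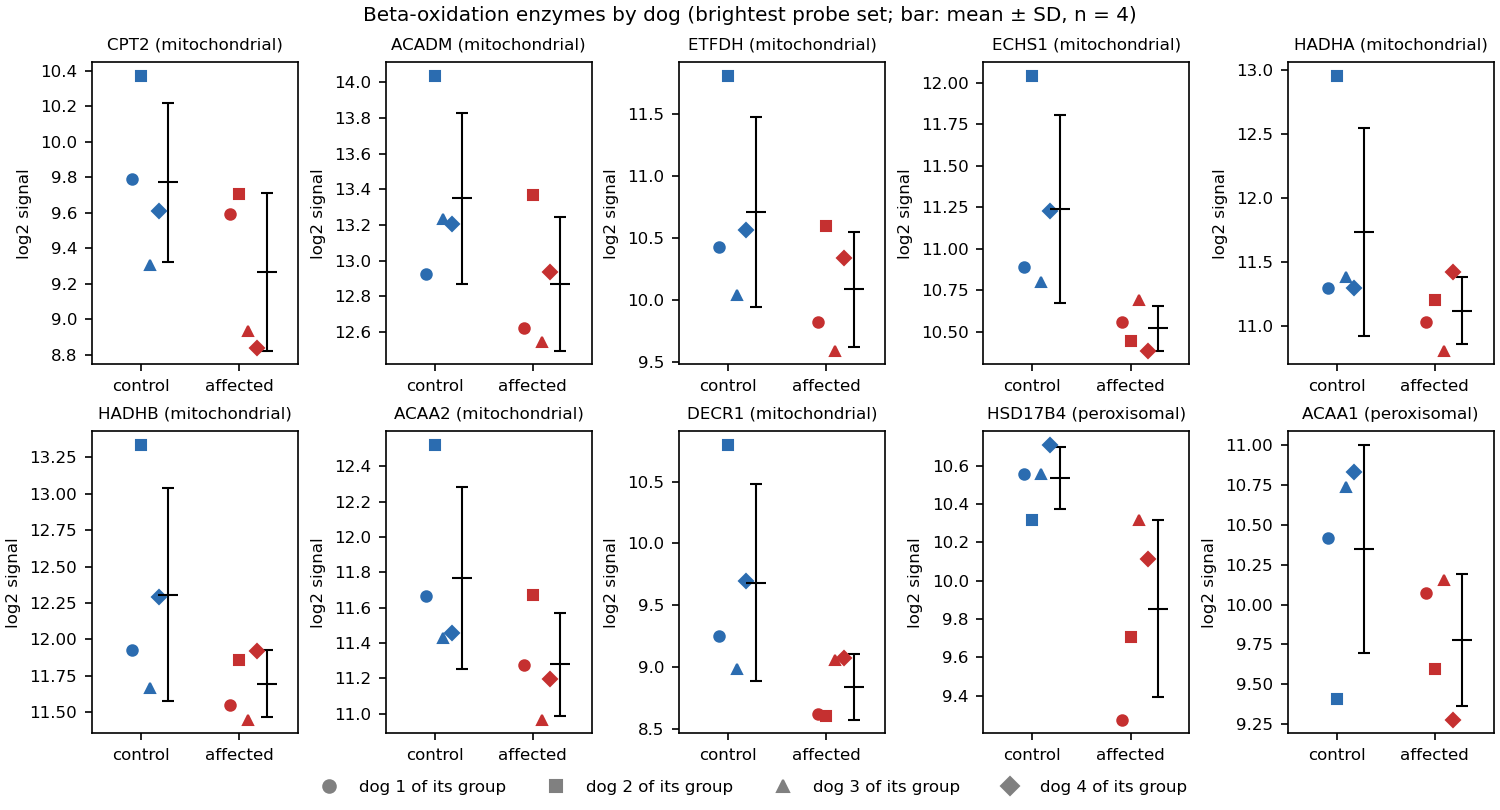
Log2 signal of each of the 10 enzymes (y axis) in 4 control (blue) and 4 affected (red) dogs, read by the brightest tested probe set; marker shape gives the dog's number within its group and black bars are mean ± SD (n = 4). Control 2 (blue square) is the highest point in the 8 mitochondrial panels, while for HSD17B4 and ACAA1 it is the lowest control.

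Entry into the mitochondrion ends with CPT2, the carnitine palmitoyltransferase of the inner membrane, which re-forms acyl-CoA inside the matrix. Its signals were 886, 1323, 633 and 782 in controls 1 to 4 and 771, 835, 488 and 458 in affected 1 to 4. Affected 3 and 4 lay below all controls, and affected 1 and 2 lay within the control range. The log2 difference was -0.50 ± 0.31 (limma adjusted p = 0.705), and -0.30 ± 0.29 without control 2. Every error on a difference given here is an SE from limma with 4 dogs per group, less any dog left out.

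ACADM, the medium-chain acyl-CoA dehydrogenase, carries out the first oxidation of the cycle. Its signals were 7767, 16790.3, 9643 and 9435 in controls and 6304, 10574, 5982 and 7852 in affected dogs. Affected 2 exceeded 3 of the 4 controls, so the groups overlapped. The log2 difference was -0.48 ± 0.29 (limma adjusted p = 0.702), or 0.717 times the control level, and -0.25 ± 0.25 without control 2.

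ETFDH, the inner membrane oxidoreductase that passes electrons from the dehydrogenases to ubiquinone, had 6 probe sets, of which 3 were tested. The brightest had signals of 1374, 3573, 1056 and 1516 in controls and 905, 1550.4, 772 and 1293 in affected dogs. Affected 1 and 3 lay below all controls, and affected 2 exceeded 3 of them. Its log2 difference was -0.62 ± 0.39 (limma adjusted p = 0.705), and -0.26 ± 0.29 without control 2. The other tested probe sets of ETFDH differed by -0.60 ± 0.37 and -0.70 ± 0.35, and by -0.33 ± 0.34 and -0.53 ± 0.37 without control 2.

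ECHS1, the short-chain enoyl-CoA hydratase that adds water to the double bond, was the one member whose groups did not overlap. Its signals were 1901, 4211, 1784 and 2397 in controls and 1512, 1393, 1653 and 1339.8 in affected dogs. Every affected dog lay below every control, and the affected dogs were close together, with a log2 SD of 0.13 against 0.56 in controls. No overlap with affected dogs lower was seen for 1 of the 20 member probe sets and for 2.31% of all tested probe sets. The log2 difference of ECHS1 was -0.72 ± 0.29 (limma adjusted p = 0.611), or 0.607 times the control level. Without control 2 it was -0.45 ± 0.22. Leaving out a dog cannot create overlap, so the lack of overlap there adds nothing.

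HADHA and HADHB are the alpha and beta subunits of the mitochondrial trifunctional protein, which handles the later steps for long chains. The genes are next to each other on chromosome 17 in the dog assembly UU_Cfam_GSD_1.0, per its RefSeq gene table. HADHA had signals of 2515, 7917, 2672 and 2515 in controls and 2096, 2359.8, 1789 and 2744 in affected dogs. Control 2 was far above all other dogs, and the highest affected dog, affected 4, exceeded the other 3 controls. The log2 difference of HADHA was -0.62 ± 0.38 (limma adjusted p = 0.702), and -0.21 ± 0.22 without control 2. Its dimmer probe set differed by -0.48 ± 0.35, and by -0.15 ± 0.27 without control 2.

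HADHB had signals of 3899, 10331, 3259 and 5018 in controls and 3005, 3718, 2799 and 3882 in affected dogs. Control 2 again stood above the rest, and affected 2 and 4 lay within the control range. The log2 difference of HADHB was -0.61 ± 0.35 (limma adjusted p = 0.689), and -0.27 ± 0.24 without control 2. Its other probe set differed by -0.62 ± 0.42, and by -0.25 ± 0.34 without control 2. The log2 ratio of HADHA to HADHB had an SD of 0.21 over the 8 dogs, while the log2 signals themselves had SDs of 0.65 and 0.60. That contrast rested on control 2: over the other 7 dogs the ratio had an SD of 0.22, and the signals had SDs of 0.22 and 0.28. The ratio was lowest in control 4 and highest in control 3, and in the 4 affected dogs it ranged from -0.66 to -0.50.

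ACAA2, the mitochondrial ketoacyl-CoA thiolase, releases acetyl-CoA in the last step. Its signals were 3250.3, 5878, 2755 and 2816 in controls and 2485, 3264, 2002 and 2349.6 in affected dogs. Affected 1, 3 and 4 lay below all controls, and affected 2 exceeded 3 of them. The log2 difference was -0.49 ± 0.29 (limma adjusted p = 0.698), and -0.24 ± 0.23 without control 2.

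DECR1, the dienoyl-CoA reductase needed for unsaturated fatty acids, had 4 tested probe sets that disagreed in size. The brightest had signals of 608, 1781, 508 and 832 in controls and 393, 388, 533 and 539.7 in affected dogs. Affected 1 and 2 lay below all controls, while affected 3 and 4 exceeded control 3. The log2 difference was -0.84 ± 0.38 (limma adjusted p = 0.633), and -0.47 ± 0.27 without control 2. The other 3 probe sets differed by -0.97 ± 0.43, -0.92 ± 0.54 and -0.34 ± 0.42. Without control 2 these were -0.57, -0.42 and -0.096, and without control 3 the last 2 were -1.41 and -0.72. The last was at -0.18 without control 4. For 2 of the 4, control 3 was the lowest of all 8 dogs. The 2 probe sets of DECR1 with differences of -0.97 and -0.84 and the single one of ECHS1 were the mitochondrial members at an unadjusted p under 0.05.

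In the peroxisome, HSD17B4, also called D-bifunctional protein, carries out the hydration and the second oxidation. Its brighter probe set had signals of 1506, 1275, 1506 and 1673 in controls and 619.7, 834, 1277 and 1107 in affected dogs. Controls were close together, with a log2 SD of 0.16. Affected 1, 2 and 4 lay below all controls, and affected 3 exceeded control 2 by a small margin. The log2 difference was -0.68 ± 0.27 (limma adjusted p = 0.604), or 0.623 times the control level. The other probe set of HSD17B4 had signals of 1129, 861, 1002 and 1382 in controls and 465, 532, 906 and 893 in affected dogs. Its difference was -0.69 ± 0.29, with affected 3 and 4 just above control 2. Without control 2 the differences were -0.75 ± 0.28 and -0.79 ± 0.30, with no overlap of the groups for either probe set.

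ACAA1, the peroxisomal thiolase, had 4 probe sets, of which 3 were tested. The brightest had signals of 1369, 681, 1709 and 1822 in controls and 1076, 775, 1142 and 621 in affected dogs. Control 2 was the lowest control, at 0.420 times the level of the other 3, and only affected 4 lay below it. The log2 difference was -0.57 ± 0.35 (limma adjusted p = 0.702). A dimmer probe set of ACAA1 had signals of 311, 204, 381 and 373 in controls and 171, 152, 242 and 188 in affected dogs, with only affected 3 above control 2, and differed by -0.73 ± 0.29. The third differed by -0.42 ± 0.30, and by -0.24 without control 4. Without control 2 the 3 differed by -0.89 ± 0.27, -0.93 ± 0.28 and -0.66 ± 0.27 (limma adjusted p of 0.402, 0.394 and 0.541), and no affected dog reached a remaining control.

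The 4 member probe sets that were too dim to test were 3 of ETFDH and 1 of ACAA1. The ETFDH ones had mean log2 signals of 6.89, 5.34 and 5.97 in controls and 6.18, 5.10 and 5.76 in affected dogs, and for the second all 4 affected dogs were at the floor of 5.10. The ACAA1 one ran the other way, with 6.17 in controls and 6.50 in affected dogs. The statement that all tested probe sets were lower therefore covers 20 of 24.

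Leaving out control 2 moved the members in opposite directions by location. Of the 15 mitochondrial probe sets, 0 then had an unadjusted p under 0.05 in limma, compared with 3 with all dogs, and 1 had groups that did not overlap. Of the 5 peroxisomal probe sets, 5 had an unadjusted p under 0.05 and 5 had groups that did not overlap, where with all dogs these numbers were 3 and 0. The background without control 2 was 5.02% of 14280 tested probe sets lower at an unadjusted p under 0.05 and 5.32% without overlap. No member passed the adjusted threshold, and the smallest adjusted p was 0.394 for ACAA1 and 0.601 for a mitochondrial member, ECHS1. The 5 peroxisomal probe sets stand for 2 genes in the same 7 dogs. Control 2 was the lowest control for each of the 5, and it was singled out in these same data. Leaving it out raised the lowest control value of each, so these higher counts are no separate support. The mitochondrial probe set without overlap was that of ECHS1, which had none with all dogs.

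**Figure D2:**
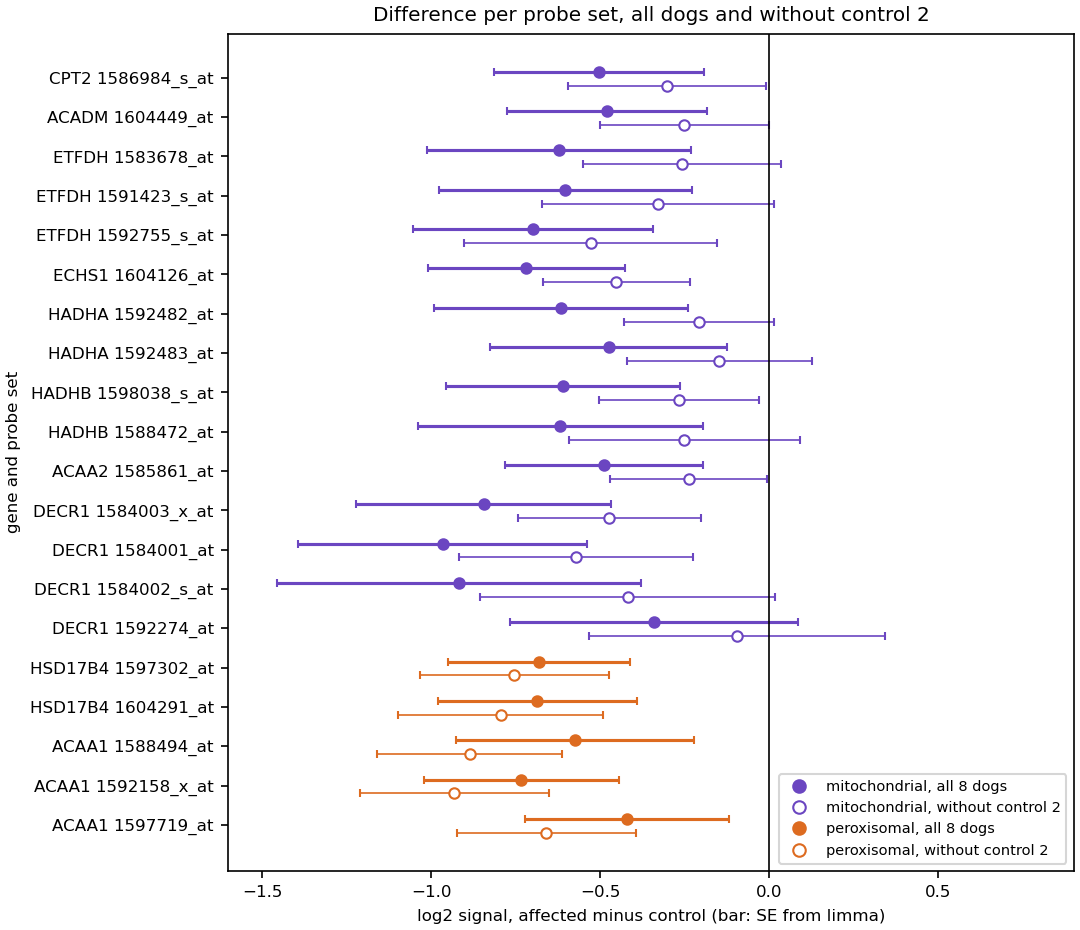
Difference in log2 signal, affected minus control (x axis), for the 20 tested probe sets of the 10 enzymes; filled points are fits with all 8 dogs, open points fits without control 2, and bars the SE from limma. Without control 2 the mitochondrial differences (purple) lie between -0.57 and -0.096 and the peroxisomal ones (orange) between -0.93 and -0.66.

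Control 2 itself was compared with the mean of the other 3 controls. It had 3.08 times their level for HADHA, 2.80 times for DECR1, 2.75 times for ETFDH, 2.59 times for HADHB, 2.09 times for ECHS1, 2.00 times for ACAA2, 1.89 times for ACADM and 1.74 times for CPT2. It had 0.817 times their level for HSD17B4 and 0.420 times for ACAA1. The same dog was 2.20 above the other controls on the log2 scale in the median over the cardiac muscle markers, 1.59 above in oxidative phosphorylation and 1.71 above in the citric acid cycle. For the interstitial markers the median of the same difference was -2.20. The mitochondrial members, averaged per dog with each gene centred on its mean, were at 1.22 in control 2 and between -0.16 and 0.16 in the other controls. In affected 1 to 4 they were at -0.38, -0.083, -0.51 and -0.25, where the cardiac markers, centred alike, were at 0.040, 1.10, -2.01 and -0.19. In controls 1 to 4 the cardiac markers were at -0.19, 1.85, -1.07 and 0.47. In both scores control 2 was the highest dog and affected 3 the lowest. Between them the order differed in part: affected 1 was above affected 4 in cardiac markers and below it in mitochondrial members. Affected 2 was above control 4 in cardiac markers and below it in mitochondrial members. The part of muscle in the mitochondrial signals was not tested. The peroxisomal members were at -0.26 in control 2 and 0.36 to 0.64 in the other controls, and from -0.48 to 0.11 in affected dogs, with affected 3 the highest.

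**Figure D3:**
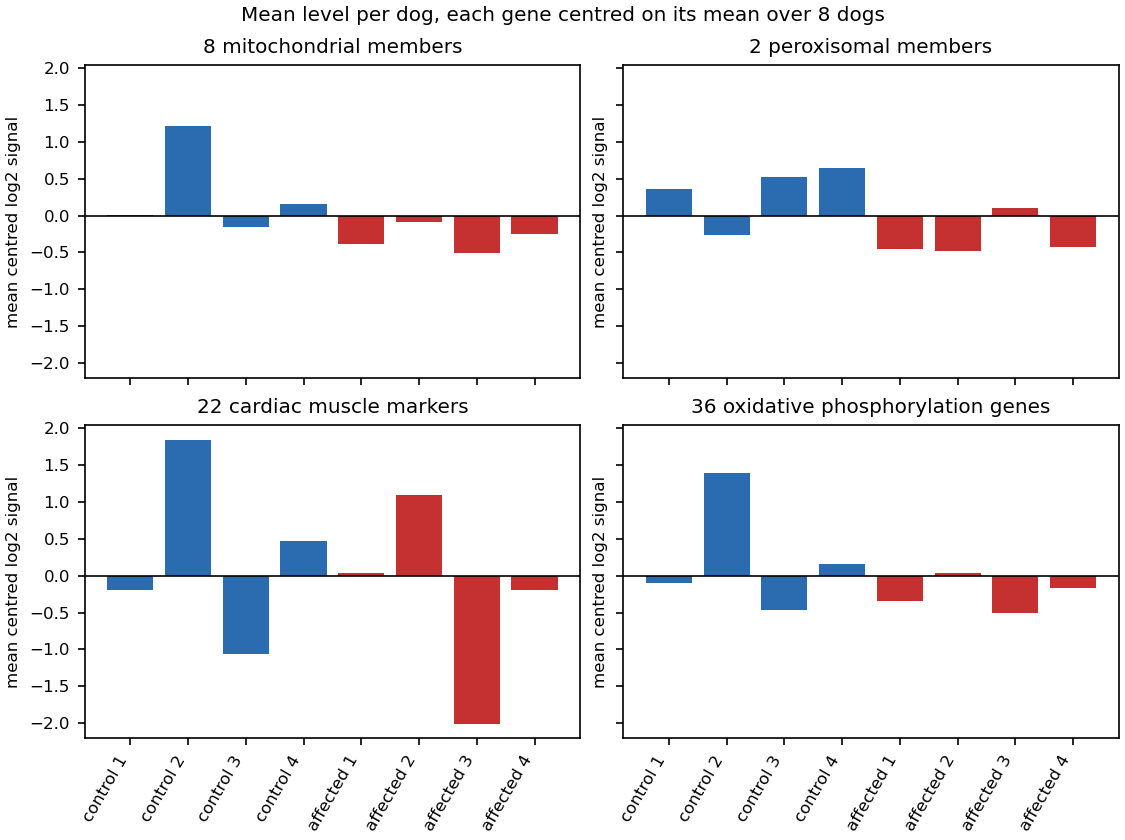
Mean log2 signal per dog (y axis), each gene centred on its mean over the 8 dogs, for the 8 mitochondrial members, the 2 peroxisomal members, 22 cardiac muscle markers and 36 genes of oxidative phosphorylation; controls are blue and affected dogs red. Control 2 is highest in 3 panels and is the one control below 0 among peroxisomal members.

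Control 2 was highest in the cardiac muscle list as in the mitochondrial members. Of its 22 tested markers out of 35 listed, 20 had a lower mean in affected dogs, with a median difference of -0.55, and the summed signal ranged from 69676 to 383236 in controls and from 36389 to 290837 in affected dogs. The direction of that list turned on single dogs. Its median was -0.044 without control 2, 0.12 without affected 3 and 0.65 without both, where the mitochondrial median was -0.26, -0.48 and -0.16. Leaving out control 3 gave a cardiac median of -0.98, and leaving out affected 2 one of -0.99. With the mean of that list per dog as a covariate in limma, the mitochondrial median was -0.41 and the peroxisomal median -0.75. With the mean of the oxidative phosphorylation list as the covariate, itself a list of mitochondrial genes, they were -0.18 and -0.86. Control 2 and affected 3 were the ends of the cardiac covariate, and the dogs are few. These medians therefore cannot show what part muscle had, which was not tested. Markers of macrophages were higher in affected dogs in 14 of 14 tested genes of 16 listed, with a median difference of 1.94 (1.18 without control 2) and summed signals of 1542 to 19788 in controls and 21652 to 47992 in affected dogs. Endothelial markers were higher in 6 of 6 tested genes of 11 listed, with a median of 1.00. Interstitial markers were higher in 10 of 11 tested genes of 15 listed, with a median of 0.48. Control 2 lay below the other controls in both lists, by medians of -0.64 and -2.20. The part of these cell types in the lower signals of the enzymes was not tested. Fat cell markers had a median difference of -0.48 over 5 tested genes of 11 listed, which was -0.79 without control 2 and -0.24 without control 3. Their summed signals ranged from 778 to 18815 in controls and from 1301 to 2682 in affected dogs.

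Mitochondrial and peroxisomal enzymes were also set against each other within each dog, for the thiolases and for the multifunctional proteins. Such a ratio within an array shows unequal change between the enzymes and nothing on either alone. The log2 ratio of ACAA2 to ACAA1 was 1.25, 3.11, 0.69 and 0.63 in controls and 1.21, 2.08, 0.81 and 1.92 in affected dogs. Control 2 was the highest of all, and affected 2 and 4 lay above the other controls. The group means differed by 0.084 (two-sided exact permutation p = 0.886, 0.971 adjusted over 2 pairs). The log2 ratio of HADHA to HSD17B4 was 0.74, 2.63, 0.83 and 0.59 in controls and 1.76, 1.50, 0.49 and 1.31 in affected dogs. Apart from control 2 and affected 3, affected dogs had the higher ratios. The means differed by 0.066 (two-sided exact permutation p = 0.971, also after adjustment over 2 pairs), where the smallest p that 70 splits of the dogs allow is 0.0286. Without control 2 the differences were 0.65 and 0.55, each with an exact permutation p of 0.171. For ACAA2 over ACAA1 the difference was negative without control 3, control 4, affected 2 or affected 4, and for HADHA over HSD17B4 without control 1, control 3, control 4, affected 1 or affected 2, so no direction can be given for either ratio.

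**Figure D4:**
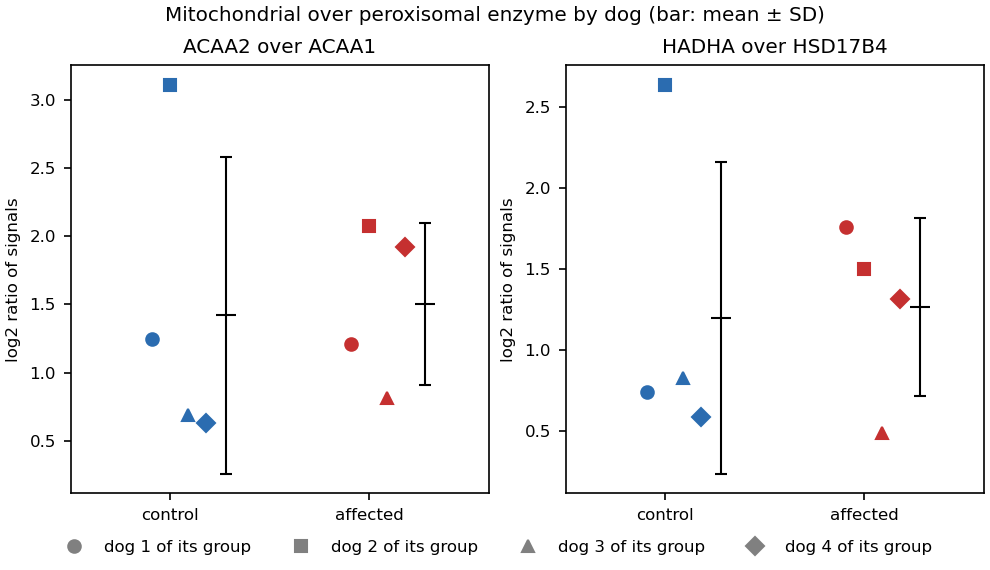
Log2 ratio of the mitochondrial to the peroxisomal enzyme (y axis) in each control (blue) and affected (red) dog, for ACAA2 over ACAA1 and HADHA over HSD17B4; marker shape gives the dog's number within its group and bars are mean ± SD (n = 4). Control 2 is the highest dog in both panels, and affected 3 lies among the other controls or below them.

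Other genes of the pathway came from lists, with each gene read by its brightest tested probe set, and 0 genes of any list below passed the limma threshold. Among enzymes that activate fatty acids or pass them through the carnitine shuttle, 6 of 12 listed genes were tested, 4 higher and 2 lower in affected dogs, with a median of 0.14. The median was 0.076 without control 2, 0.073 without affected 2, 0.26 without control 3 and 0.21 without affected 4. ACSL1, which activates long-chain fatty acids, had a difference of -1.10 ± 0.34 (limma adjusted p = 0.513) with all affected dogs below all controls, and -0.84 without control 2. Its relatives ACSL4 and ACSL5 had differences of 1.05 ± 0.46 and 0.45 ± 0.23, and of 1.20 and 0.35 without control 2. For ACSL5 all affected dogs lay above all controls. CPT1A, the gatekeeper of the carnitine shuttle, was at 0.21 ± 0.36, and at -0.17 without control 2.

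Of 21 other mitochondrial genes of fatty acid and branched-chain acid oxidation, 12 were tested and 11 were lower, with a median of -0.42 and of -0.15 without control 2. ACAT1, which splits and forms acetoacetyl-CoA in ketone metabolism, had a difference of -0.91 ± 0.30 (limma adjusted p = 0.536) with no overlap of the groups, and -0.67 without control 2. IVD and PCCB, enzymes of branched-chain amino acid and propionyl-CoA breakdown, were at -0.62 ± 0.32 and -0.63 ± 0.39, and without control 2 at -0.37 and -0.24. ETFA and ETFB, the subunits of the flavoprotein that delivers electrons to ETFDH, were at -0.45 ± 0.41 and -0.42 ± 0.29, and without control 2 at -0.012 and -0.14. HADH, the short-chain hydroxyacyl-CoA dehydrogenase, was the one of the 12 with a higher mean, at 0.38 ± 0.44, and at 0.70 without control 2. The citric acid cycle had 10 of 11 tested genes lower with a median of -0.61, and oxidative phosphorylation 35 of 36 with a median of -0.50. In the citric acid cycle SUCLG2 had no overlap of the groups, at -0.72 ± 0.25, and IDH3B and IDH3G were at -0.96 ± 0.52 and -0.61 ± 0.33. In complex I NDUFV1 was at -0.89 ± 0.37, NDUFA2 at -0.62 ± 0.28 with no overlap of the groups, and NDUFV2 at -0.77 ± 0.39. Without control 2, IDH3B was at -0.41, IDH3G at -0.30, NDUFV1 at -0.49, NDUFA2 at -0.37 and NDUFV2 at -0.39. The medians without control 2 were -0.042 for the citric acid cycle and -0.089 for oxidative phosphorylation, nearer to 0 than the -0.26 of the mitochondrial members. Control 2 was the highest dog for 35 of the 36 oxidative phosphorylation genes, 10 of the 11 citric acid cycle genes and 9 of the 12 other mitochondrial oxidation genes.

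In a list drawn up as other peroxisomal genes of lipid oxidation, 7 of 17 listed were tested and 5 were lower, with a median of -0.49. The median was -0.53 without control 2 and -0.20 without affected 1. Catalase (CAT), which breaks down the peroxide that peroxisomal oxidation makes, had a difference of -0.76 ± 0.24 (limma adjusted p = 0.523) with all affected dogs below all controls. PECR, a peroxisomal enoyl-CoA reductase, was at -0.71 ± 0.34 and SCP2, which also acts as a peroxisomal thiolase, at -0.49 ± 0.24. ABCD4 and ACOT8 were the 2 genes with higher means, at 0.34 ± 0.32 and 0.14 ± 0.31, and without control 2 at 0.14 and -0.016. ABCD4 is not a gene of peroxisomal oxidation, so the count and medians of this list include a gene that does not belong to it. Of the peroxins, which build the organelle, 4 of 17 listed genes were tested and 3 were lower, with a median of -0.31. PEX13 was at -0.46 ± 0.30 and PEX7, the import receptor that carries ACAA1, at -0.40 ± 0.24, while PEX19 was at -0.21 ± 0.23 and at -0.13 without control 2.

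**Figure D5:**
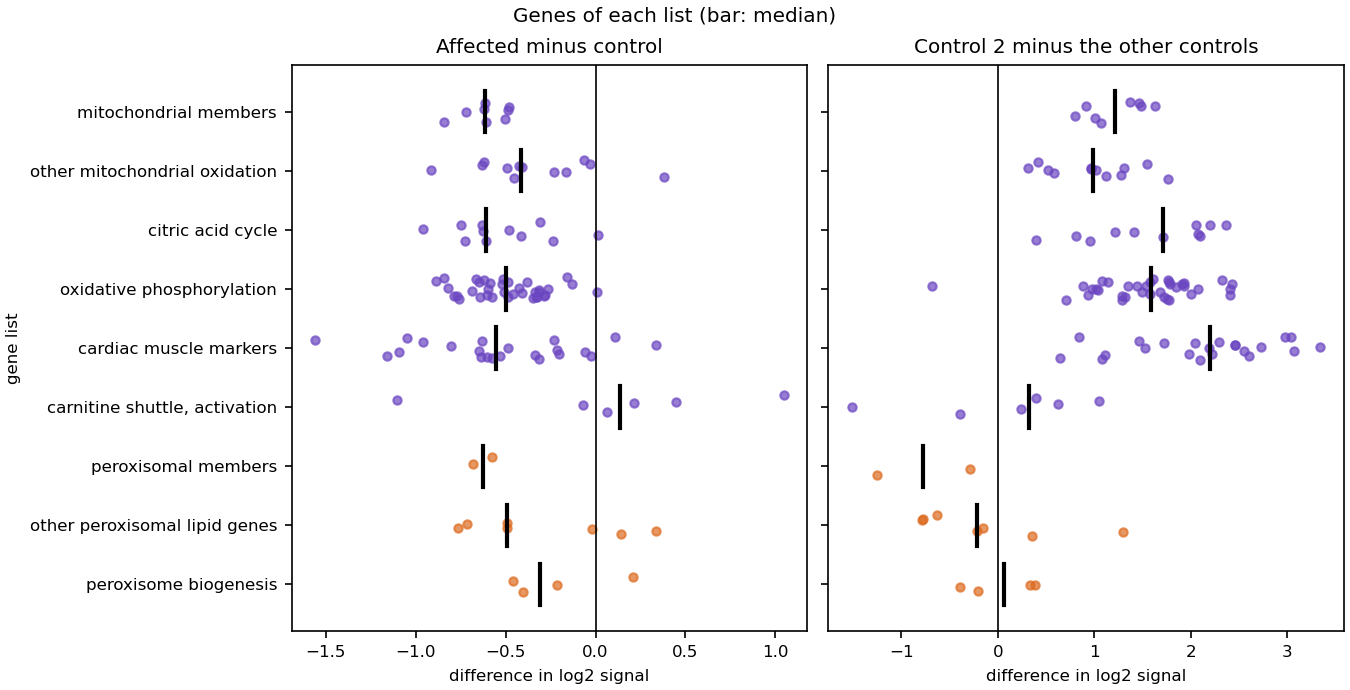
Difference in log2 signal (x axes) for each tested gene of 9 lists (y axis), affected minus control on the left and control 2 minus the mean of the other 3 controls on the right; purple marks mitochondrial, carnitine and muscle lists, orange peroxisomal lists, and black bars list medians. On the left the mitochondrial and peroxisomal members have medians of -0.61 and -0.63, and on the right of 1.22 and -0.77.

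Among 10 listed regulators of these genes, 4 were tested. PPARA, the nuclear receptor that activates genes of fatty acid oxidation in both organelles, had a difference of -1.41 ± 0.36 (limma adjusted p = 0.367), with all affected dogs below all controls, and -1.14 without control 2. The coactivators PPARGC1A and PPARGC1B were at -0.48 ± 0.41 and 0.079 ± 0.71, and without control 2 at -0.083 and 0.62. PPARG, the regulator of fat cell genes, was at 0.22 ± 0.39.

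The genes whose pattern over the 8 dogs was most like the mean of the mitochondrial members were ranked by Pearson's r among 5428 other genes, as a description. All values come from the same 8 arrays, and control 2 holds much of their range. SERPINI1, a serine protease inhibitor also called neuroserpin, came first at 0.994, and r was 0.960 without control 2. Next came the complex I subunit NDUFA2 at 0.988, MMACHC of vitamin B12 handling at 0.986, the complex I subunit NDUFS7 at 0.986 and the outer membrane channel VDAC3 at 0.981. NDUFS4 of complex I, the citric acid cycle subunit IDH3B and UQCRC2 of complex III each had 0.978. For the mean of the 2 peroxisomal members the 3 genes most alike were APLF at 0.977, SERPINF1, a secreted serpin, at 0.964 and CCPG1 at 0.961. Those 3 were lower in control 2 than in the mean of the other controls, by log2 differences of -0.53, -1.51 and -0.62, while the 8 genes like the mitochondrial members were higher there by 0.99 to 2.19.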

How the data were processed

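The authors deposited 1 signal per probe set and dog, an intensity on a linear scale that MAS5 produced, per the submitters' processing notes. The MAS5 version, detection calls and filters are not given in the sources used. Gene names came from the platform annotation; for 9 of the 10 members the gene identifier was found in the RefSeq table, HADHA by symbol only. Percentiles were taken over all 23913 rows.

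Arrays were rescaled to the same trimmed mean (2% left out at each end), values under the 20th percentile were raised to it (a floor of 34.2), and log2 values were used. Testing required a signal above the array's own 40th percentile on 4 or more of the 8 arrays. Groups were compared with limma 3.58.1 in R 4.3.3 (lmFit, eBayes with intensity trend, two-sided, Benjamini-Hochberg over 14705 probe sets, threshold 0.05). Enzyme ratios were compared by exact permutation over dogs. On simulated data for this comparison, with 200 of 14705 probe sets changed, the share recovered was 0% for log2 changes of 1, 62.0% for 2 and 95.2% for 4.

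All member probe sets are named. Of other genes, the text names the 3 of each pathway list with the smallest unadjusted p, some further genes of the carnitine, mitochondrial and peroxisomal lists, chosen for their role after their values were seen, and the most alike by correlation; genes of the cell type marker lists are given as lists only; PPARGC1B was added as the remaining regulator. Members and lists were chosen with earlier results of these data known. Whether same-numbered dogs of the groups are paired was checked: their deviations correlated at -0.12, 0.41, 0.022 and -0.013. Control 1 correlated at 0.46 with affected 3 and at -0.46 with affected 2. The check thus gave no sign of pairing, but it cannot exclude one. The labels call the dogs biological replicates.

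Alternatives were other normalizations, filters, floors and priors, array weights, a replicate block, covariates, another choice of probe set, and leaving out each dog. Leaving out control 2 and affected 3 together was added after seeing the data. A planned search of promoters for motifs was not run, since no promoter sequences were used here.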

Additional observations from a re-analysis of the deposited data

Results flagged for a closer look

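A dog was singled out where its gap to the nearest dog of its group of 4, divided by the range of the group, exceeded the critical value of Dixon's test. Of 68 groups examined, 4 met this, and chance gives about 1 in 20. In controls, the log2 signal of HADHA was 12.95 in control 2, with the next dog at 11.38, and the log2 ratio of HADHA to HSD17B4 was 2.63 in the same dog, with the next at 0.83. The mean log2 signal of the other mitochondrial oxidation genes was 10.96 in control 2, with the next at 10.05. In affected dogs, the mean of the list of other peroxisomal lipid genes, ABCD4 included, was 9.59 in affected 3, with the next at 9.13. Control 2 also had the highest and affected 3 the lowest mean of the cardiac muscle markers, and the part of muscle in these values was not tested.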

How the results depend on the processing

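Of 457 differences of member probe sets under the alternatives, 456 were below 0 and 0 passed the threshold; the exception was a dim DECR1 probe set, at 0.011 with the oxidative phosphorylation covariate. Over all probe sets the number called in limma was 4 with the replicate block, 1 with the oxidative phosphorylation covariate, 112 without control 2 and affected 3 together, and 0 to 1 when each dog was left out; none was a member. Lower probe sets at an unadjusted p under 0.05 numbered 560, and 1071 with array weights, 869 with the cardiac muscle covariate, 872 with the oxidative phosphorylation covariate, 1240 without both dogs and 311 to 816 when each dog was left out. Members among them numbered 0 to 6 when each dog was left out. Members without overlap numbered 1, and 2 with quantile normalization, 3 with arrays centred on their median, 7 without both dogs and 1 to 6 when each dog was left out. The share over all tested probe sets was 2.31% with all dogs and 5.32% without control 2. It is not given for the other settings, so these counts are no result about the members. Leaving out a dog cannot create overlap. The mitochondrial median ranged from -0.78 to -0.26 and the peroxisomal one from -0.82 to -0.52 when each dog was left out, and without both dogs they were -0.16 and -0.96. When each dog was left out, the ratio differences ranged from -0.18 to 0.65 for ACAA2 over ACAA1 and from -0.14 to 0.55 for HADHA over HSD17B4. The replicate block left the mitochondrial median at -0.61. It counted 5 members lower at an unadjusted p under 0.05 in limma, among 742 of all tested probe sets. No sign that the numbers pair the dogs was seen. The causes were not tested. Depth does not apply to arrays, and no detection calls were used, so how far dim signals stood above background is not known.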
